A study of Mus musculus with 30 samples.

Results

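A set of 10 genes that mark lipid-associated macrophages, the lipid-laden macrophages described in fat tissue, arterial plaques and tumours, was followed through 30 bulk RNA-seq libraries of mouse tumour-associated macrophages (TAMs). The genes, Apoe, Abca1, Abcg1, Lpl, Fabp4, Fabp5, Trem2, Gpnmb, Spp1 and Lgals3, were found by their names in the deposited count table, each on 1 row, as 10 of its 46603 genes. A macrophage that takes up lipid stores it as cholesterol esters or passes it on. Sterols activate the LXR nuclear receptors, which switch on the carrier Apoe and the exporters Abca1 and Abcg1, while lipoprotein lipase (Lpl) frees fatty acids that the carriers Fabp4 and Fabp5 move through the cytosol. Trem2 is a surface receptor for lipids and cell debris, Gpnmb is a glycoprotein of lysosomes and the cell surface under control of the MITF family, Spp1 is the secreted protein osteopontin, and Lgals3 is galectin-3, a sugar-binding lectin that gathers at damaged lysosomes and is also released.

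The macrophages came from wild-type C57BL/6 mice with subcutaneous tumours of 3LL-R, a Lewis lung carcinoma line, and were sorted by surface MHC class II into MHC-IIlo and MHC-IIhi TAMs. There were 6 groups of 5 libraries: MHC-IIlo and MHC-IIhi TAMs kept 24 h in culture with sodium L-lactate at 20 mM, the same subsets kept 24 h in culture with no lactate, and both subsets fresh from the sort. Fresh libraries were made from 30000 cells sorted straight into lysis buffer and cultured ones from 250000 cells lysed in their wells, so culture, cell number and lysis cannot be told apart. The 5 libraries of a group are titled biological replicates. Whether 1 or several mice gave a library, and their age and sex, are not given in the sources used here. In bulk RNA, fewer cells of a type and less RNA per cell cannot be told apart, which holds for every value that follows.

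Libraries held 16913250 to 31481548 counts. Levels are given as CPM, counts scaled by library size and by TMM factors over all 30 libraries, and libraries of a group are listed in the order of their numbers. All 9 genes of a macrophage list (among them Adgre1, Csf1r and Cd68) were detected in each group. The summed CPM of 5 MHC class II genes, the check of the sort, was 29.1 to 108 in lactate MHC-IIlo against 3671 to 6385 in lactate MHC-IIhi libraries, 78.6 to 378 in no-lactate MHC-IIlo against 3847 to 7507 in no-lactate MHC-IIhi libraries, and 463 to 1038 in fresh MHC-IIlo against 20905 to 26131 in fresh MHC-IIhi libraries. Adipocytes also use Lpl and Fabp4, and their defining genes Adipoq and Lep had 0 counts in all 30 libraries. One library, lactate MHC-IIlo 5, stood apart: its macrophage genes summed to 3274 CPM, the lowest of its group, in which the highest sum was 8224 CPM, and it was also the lowest of its group in Apoe, Gpnmb, Trem2, Lpl, Fabp4, Fabp5, Lgals3 and Abcg1. Results of the lactate MHC-IIlo group are given with and without it where that changes a call or a sign or moves a value by more than 1.5 times.

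**Figure D1:**
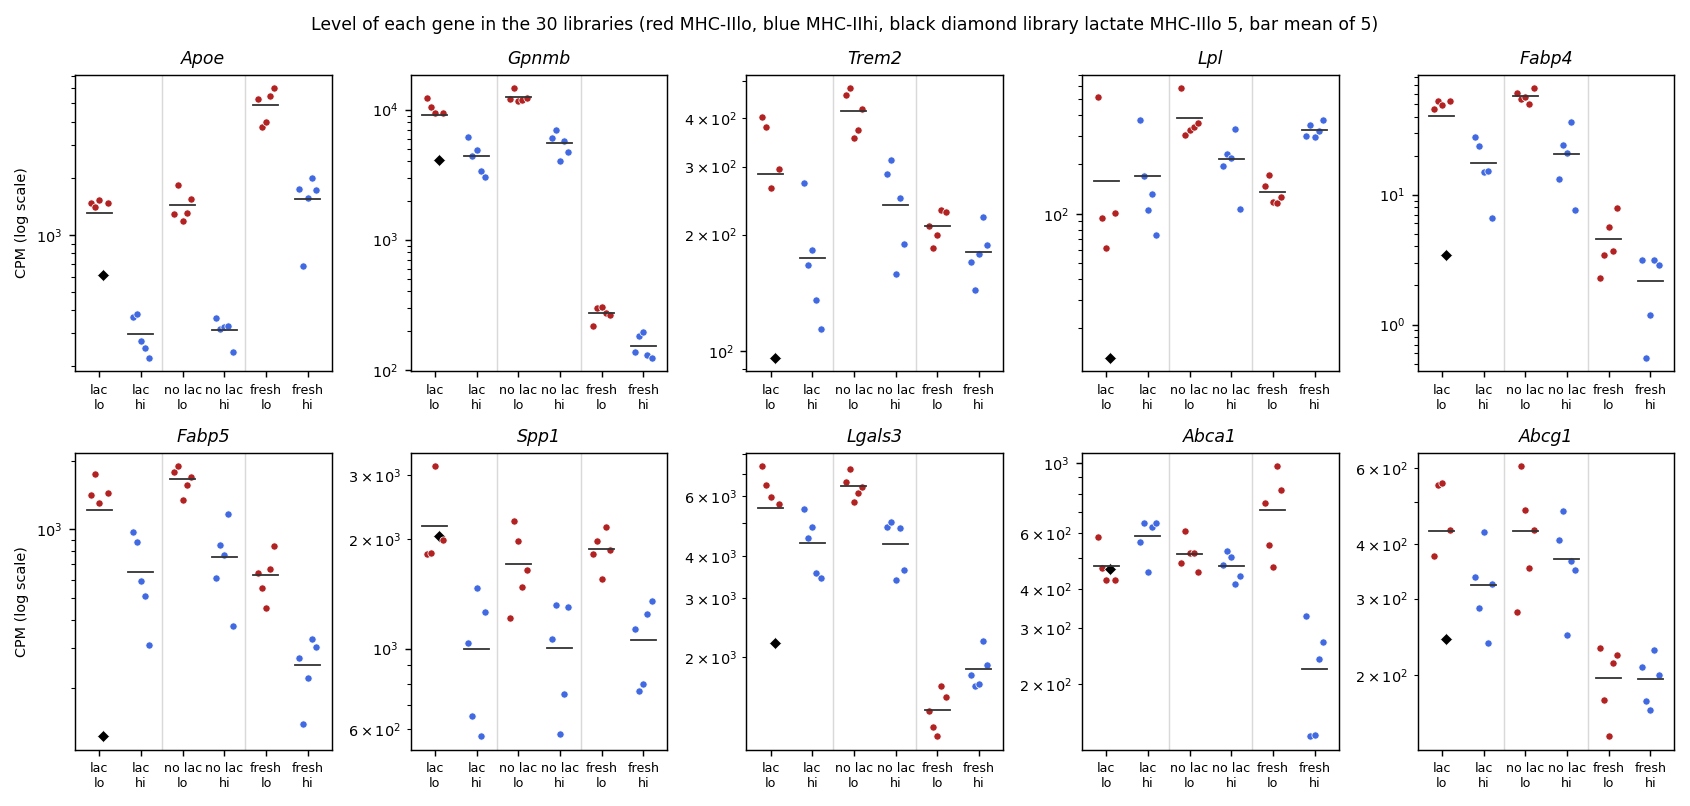
Level of each gene in CPM (log axis) in the 30 libraries; columns run from lactate through no-lactate to fresh groups, red points are MHC-IIlo, blue points MHC-IIhi, bars the mean of 5 libraries and the black diamond is library lactate MHC-IIlo 5. Gpnmb stands at 3054 CPM or more in each cultured library and at 303 CPM or less in each fresh one, while Apoe is highest in fresh MHC-IIlo libraries.

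The 10 genes lie on 8 chromosomes of GRCm38. The sterol genes are Apoe (ENSMUSG00000002985) at chr7:19696109-19699166 on the minus strand, Abca1 (ENSMUSG00000015243) at chr4:53030787-53159895 on the minus strand and Abcg1 (ENSMUSG00000024030) at chr17:31057698-31115777 on the plus strand. The lipase and the fatty acid carriers are Lpl (ENSMUSG00000015568) at chr8:68880491-68907448 on the plus strand, Fabp4 (ENSMUSG00000062515) at chr3:10204088-10208576 on the minus strand and Fabp5 (ENSMUSG00000027533) at chr3:10012548-10016607 on the plus strand. The membrane proteins are Trem2 (ENSMUSG00000023992) at chr17:48346401-48354147 on the plus strand and Gpnmb (ENSMUSG00000029816) at chr6:49036546-49070929 on the plus strand, and the secreted ones Spp1 (ENSMUSG00000029304) at chr5:104435118-104441050 on the plus strand and Lgals3 (ENSMUSG00000050335) at chr14:47367751-47386160 on the plus strand. Of these genes 2 overlap another annotated gene: RP24-299A7.2 within Spp1 had 1112 counts and Gm25447 within Abcg1 had 12 counts over all 30 libraries. Related genes of the fatty acid carriers held few reads, with 210 counts for the pseudogene Fabp3-ps1, 65 for Fabp12, 19 for Fabp5l2 and 0 for Fabp9 over all libraries.

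Levels were scaled by the deposited gene length to set genes side by side. For Fabp4 that length, 4489 bases, is its whole gene span, so levels per kb compare different genes only roughly. On this scale Lgals3 and Spp1 were among the most abundant transcripts of these cells in each group. Lgals3 ranked between 10 and 57 by mean CPM per kb among the 25626 genes with a count, and Spp1 between 23 and 74. Apoe ranked 12 in fresh MHC-IIlo TAMs, with 2474 ± 501 CPM per kb (SD, n = 5), against 60 in fresh MHC-IIhi TAMs, and ranked 320 in no-lactate MHC-IIhi TAMs. Gpnmb ranked 15 in no-lactate MHC-IIlo TAMs, with 1923 ± 188 CPM per kb, and 1311 in fresh MHC-IIlo TAMs, with 41.6 ± 5.37 CPM per kb. Fabp4 was the least abundant gene of the 10 in each group, with ranks from 3808 in no-lactate MHC-IIlo to 11964 in fresh MHC-IIhi TAMs. Of the paired carriers, Fabp5 outweighed Fabp4 per kb in each library, by a median of 36.8 times in no-lactate MHC-IIlo and 202 times in fresh MHC-IIlo TAMs. Of the counts of a cultured MHC-IIlo library the 10 genes took 1.27% to 2.52% with lactate and 2.38% to 2.73% without it, of which Gpnmb alone took 1.16% to 1.34% without lactate. In a cultured MHC-IIhi library they took 0.987% to 1.40% with lactate and 1.1% to 1.52% without it. In fresh cells they took 0.923% to 1.15% of a MHC-IIlo library and 0.451% to 0.654% of a MHC-IIhi library.

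**Figure D2:**
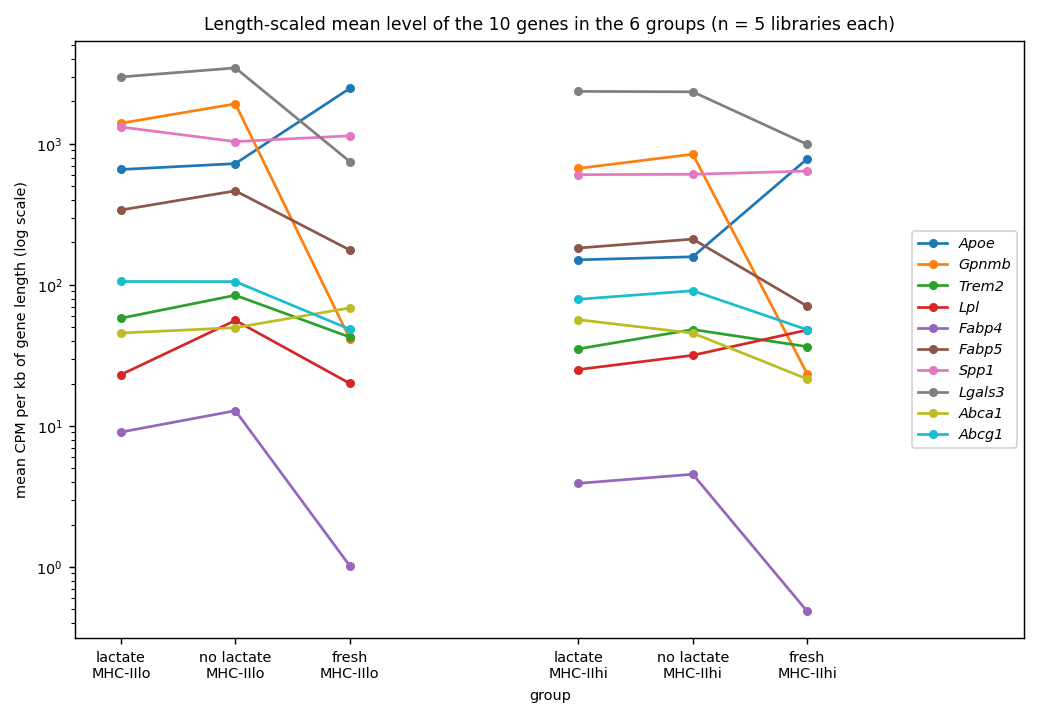
Mean CPM per kb of gene length (log axis, n = 5 libraries a group) of the 10 genes, with the MHC-IIlo groups at the left and the MHC-IIhi groups at the right, each from lactate through no lactate to fresh. Gpnmb is among the highest genes in the cultured groups, with rank 15 in no-lactate MHC-IIlo, and among the lower ones in fresh cells, with rank 1311 in fresh MHC-IIlo, whereas Spp1 runs almost level within each subset.

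The order of the 6 groups differed between the genes. By the ranges of their 5 libraries, Apoe fell into 3 tiers, with fresh MHC-IIlo on top, then fresh MHC-IIhi with no-lactate and lactate MHC-IIlo, then both cultured MHC-IIhi groups. Gpnmb had the 4 cultured groups on top, then fresh MHC-IIlo, then fresh MHC-IIhi. Among the cultured groups, no-lactate MHC-IIlo lay above both MHC-IIhi groups. Lactate MHC-IIlo overlapped the cultured MHC-IIhi groups through library 5 alone, at 4124 CPM where the others held 9355 to 12198 CPM. Lgals3 had the 4 cultured groups on top but for library lactate MHC-IIlo 5, which at 2209 CPM fell among the fresh MHC-IIhi values, then fresh MHC-IIhi, then fresh MHC-IIlo. Abcg1 separated the 4 cultured groups from both fresh groups, and Abca1 set only fresh MHC-IIhi apart, as the lowest. Fabp5 in fresh MHC-IIhi lay below fresh MHC-IIlo and both no-lactate groups and overlapped both lactate groups. The overlap with lactate MHC-IIlo came from library 5 alone, at 122.5 CPM where the others held 1307 to 1756 CPM. In Trem2, Lpl, Fabp4 and Spp1 each group overlapped its neighbours in the order of the means.

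Promoters from 250 bases before to 50 after the gene start were at hand for 6 of the 10 genes, Apoe, Abca1, Trem2, Gpnmb, Spp1 and Lgals3 (RefSeq, GRCm38.p6). Shown 5′ to 3′ on the strand of the gene are that of Gpnmb at chr6:49036268-49036567, the gene with the largest difference after culture, that of Lgals3 at chr14:47373610-47373909, which moved the same way, and those of Apoe at chr7:19699139-19699438 and Abca1 at chr4:53159846-53160145, which changed the most between fresh subsets. Capitals mark the motifs searched on both strands: the E-box CACGTG and the M-box core CATGTG, to which MITF-family factors bind, the AP-1 motif TGANTCA, the PU.1 core GAGGAA, the nuclear receptor half-site AGGTCA and the box TATAAA.
Gpnmb: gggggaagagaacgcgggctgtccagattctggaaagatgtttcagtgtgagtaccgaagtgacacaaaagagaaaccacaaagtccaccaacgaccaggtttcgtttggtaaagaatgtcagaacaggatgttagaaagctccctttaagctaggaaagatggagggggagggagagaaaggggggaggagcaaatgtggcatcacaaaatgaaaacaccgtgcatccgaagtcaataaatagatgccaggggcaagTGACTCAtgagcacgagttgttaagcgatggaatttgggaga
Lgals3: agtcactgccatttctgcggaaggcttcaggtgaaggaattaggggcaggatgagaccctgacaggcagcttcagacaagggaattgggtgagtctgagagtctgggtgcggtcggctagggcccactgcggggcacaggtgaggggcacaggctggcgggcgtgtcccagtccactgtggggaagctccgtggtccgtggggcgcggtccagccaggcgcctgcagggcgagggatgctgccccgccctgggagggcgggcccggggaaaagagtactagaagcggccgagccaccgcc
Apoe: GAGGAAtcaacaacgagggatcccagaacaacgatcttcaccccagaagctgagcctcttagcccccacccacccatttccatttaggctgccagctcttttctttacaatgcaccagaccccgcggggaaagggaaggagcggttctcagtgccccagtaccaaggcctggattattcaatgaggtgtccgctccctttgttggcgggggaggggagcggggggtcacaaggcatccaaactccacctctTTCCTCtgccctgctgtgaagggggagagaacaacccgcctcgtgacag
Abca1: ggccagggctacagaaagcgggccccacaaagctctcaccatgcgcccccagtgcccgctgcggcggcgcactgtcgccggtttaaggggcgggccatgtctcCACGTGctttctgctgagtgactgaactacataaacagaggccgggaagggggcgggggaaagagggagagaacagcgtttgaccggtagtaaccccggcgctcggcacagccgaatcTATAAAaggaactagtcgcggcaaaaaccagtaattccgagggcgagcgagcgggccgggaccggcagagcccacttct
The Gpnmb promoter held 1 AP-1 motif at base 9 after the start and neither E-box nor M-box core. The Lgals3 window, set on the RefSeq start, lies inside the gene span given above and so belongs to a later start than the first of that annotation; it held none of the 6 motifs. Apoe had the PU.1 core at base -250 and, on the other strand, at base 2, and Abca1 had an E-box at base -147 and TATAAA at base -29. Of those not shown, Trem2 held an AP-1 motif at base -9, a PU.1 core at -40 and a half-site at -68, and Spp1 held a PU.1 core at -113 and TATAAA at -211. Among all 32851 promoters of the same length, 7.2% held CACGTG, 14.2% CATGTG, 7.8% TGANTCA, 28.3% GAGGAA, 16.3% AGGTCA and 13.6% TATAAA. A match is a string of letters, and no binding was measured.

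Fresh MHC-IIlo and MHC-IIhi TAMs differed in 7 of the 10 genes. The lipid carrier Apoe and the sterol exporter Abca1 were more than 3 times higher in MHC-IIlo TAMs (3.16-fold and 3.20-fold), and Fabp5, Spp1 and Gpnmb were higher by 2.50, 1.78 and 1.77 times. Lpl and Lgals3 were lower in MHC-IIlo TAMs, by 2.39 and 1.32 times. Calls here and below are adjusted p under 0.05 by edgeR's quasi-likelihood F test with Benjamini-Hochberg adjustment over all genes tested. All 10 genes were among the 12787 tested, of which 29.2% passed, 14% higher and 15.2% lower in MHC-IIlo, so 5 of 10 higher and 2 of 10 lower stand beside those shares.

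Apoe measured 5259, 3741, 3980, 5484 and 6032 CPM in fresh MHC-IIlo libraries, against 1752, 687, 1567, 2002 and 1742 CPM in fresh MHC-IIhi libraries. Each MHC-IIlo library lay above each MHC-IIhi library, and the second MHC-IIhi library was the lowest of all. The log2 difference was 1.66 ± 0.24 (SE, adjusted p = 2.0e-04). Abca1 measured 745, 552, 469.9, 975 and 819 CPM in fresh MHC-IIlo libraries and 329, 137, 138, 239.5 and 273 CPM in fresh MHC-IIhi libraries, again with no overlap (log2 difference 1.68 ± 0.25, adjusted p = 3.2e-04). Its partner Abcg1, which exports sterol to larger lipoprotein particles, averaged 197 ± 36.3 CPM in fresh MHC-IIlo and 196 ± 25.4 CPM in fresh MHC-IIhi TAMs (SD, n = 5 each), a log2 difference of 0.01 ± 0.12 that did not pass (adjusted p = 0.955). Per kb, the ratio of Abca1 to Abcg1 was therefore 1.24 to 1.80 in fresh MHC-IIlo libraries and 0.309 to 0.619 in fresh MHC-IIhi libraries.

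Lpl ran the other way. It measured 149, 172, 119, 117 and 126 CPM in fresh MHC-IIlo libraries, against 299, 348, 293, 320.0 and 372 CPM in fresh MHC-IIhi libraries, and each MHC-IIlo library lay below each MHC-IIhi library (log2 difference -1.26 ± 0.11, adjusted p = 4.9e-06). Fabp5 measured 639, 549, 449, 671 and 848 CPM in fresh MHC-IIlo libraries and 272, 139, 221, 328 and 302 CPM in fresh MHC-IIhi libraries, with MHC-IIlo above MHC-IIhi throughout (log2 difference 1.32 ± 0.21, adjusted p = 4.3e-04). Fabp4 was low, at 4.59 ± 2.23 CPM in fresh MHC-IIlo and 2.18 ± 1.22 CPM in fresh MHC-IIhi TAMs, with a log2 difference of 1.08 ± 0.44 (adjusted p = 0.0877).

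Of the membrane proteins, Gpnmb measured 217, 299.8, 303, 272 and 264 CPM in fresh MHC-IIlo libraries and 138, 181, 194, 129.8 and 123 CPM in fresh MHC-IIhi libraries. The groups did not overlap (log2 difference 0.82 ± 0.15, adjusted p = 0.00101). Trem2 averaged 211 ± 19.5 CPM in fresh MHC-IIlo and 181 ± 28.5 CPM in fresh MHC-IIhi TAMs, a log2 difference of 0.23 ± 0.10 that did not pass (adjusted p = 0.113); without fresh MHC-IIhi library 4 it was 0.30 and passed (adjusted p = 0.0292). Spp1 measured 1822, 1982, 1558, 2166 and 1874 CPM in fresh MHC-IIlo libraries and 1134, 762, 797, 1244 and 1353 CPM in fresh MHC-IIhi libraries, without overlap (log2 difference 0.83 ± 0.15, adjusted p = 0.00115). Lgals3 measured 1384, 1244, 1168, 1646 and 1523 CPM in fresh MHC-IIlo libraries and 1774, 1646, 1666, 2243 and 1894 CPM in fresh MHC-IIhi libraries. There too the ranges were apart, though only just, with the highest MHC-IIlo and the lowest MHC-IIhi library both at 1646 CPM after rounding (log2 difference -0.40 ± 0.11, adjusted p = 0.0127). In a fit over all 30 libraries, which share 1 estimate of the spread, the calls of Lpl (adjusted p = 0.0867) and Lgals3 (adjusted p = 0.172) were lost; on the authors' FPKM values, the log2 difference of Spp1 was 0.33 and that of Lgals3 -0.83, both past the threshold.

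**Figure D3:**
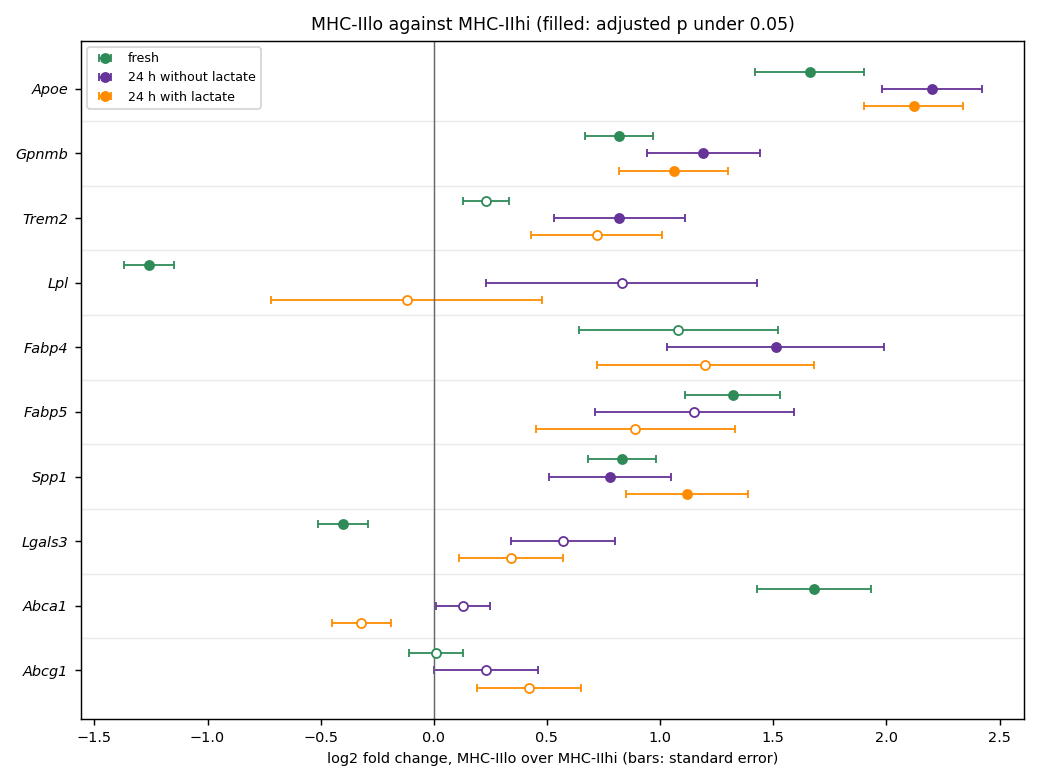
Log2 fold change of MHC-IIlo over MHC-IIhi TAMs for the 10 genes, with its standard error, in fresh cells (green), after 24 h without lactate (purple) and after 24 h with lactate (orange), 5 libraries a group; filled points have an adjusted p under 0.05. Apoe is filled in all 3 settings, at 1.66, 2.20 and 2.12, whereas Lpl is filled only in fresh cells, at -1.26, and so is Abca1, at 1.68.

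Among genes of the same pathways, those of lysosomes and the MITF family were mostly higher in fresh MHC-IIlo TAMs. Of 20 tested in fresh TAMs, 13 were higher and 1 lower in MHC-IIlo, with a median log2 difference of 0.51 against 0.00 for all genes tested. Ctsl, the lysosomal protease cathepsin L, was higher (1.26 ± 0.15, adjusted p = 6.4e-05). Of 11 partners of osteopontin and galectins, 8 were higher and 1 lower (median 0.42), among them the integrin chain Itga9 (1.59 ± 0.23, adjusted p = 2.3e-04) and the lectin Lgals8 (0.73 ± 0.10, adjusted p = 2.1e-04). Of 9 LXR receptors and targets, 3 were higher and 2 lower, with Apoc2, the activator of lipoprotein lipase, at 1.11 ± 0.18 and the desaturase Scd2 at -0.52 ± 0.10. Of 9 lipid uptake receptors, 3 were higher and 3 lower, with the fatty acid receptor Cd36 at 1.36 ± 0.18 and the oxidised-lipid receptor Olr1 at -1.46 ± 0.20. Olr1 was low, with means of 2.30 CPM in fresh MHC-IIlo and 6.33 CPM in fresh MHC-IIhi TAMs. Of 11 genes of lipid storage and release, 2 were higher and 3 lower, with the cholesterol ester hydrolase Nceh1 at 0.98 ± 0.10 and the lipase Lipe at -0.81 ± 0.09. Of 9 genes of Trem2 signalling and shedding, 1 was higher (the sheddase Adam17, 0.34 ± 0.06) and 1 lower (the phospholipase Plcg2, -0.82 ± 0.09). Of 5 PPAR receptors and targets, Pparg alone passed, lower in MHC-IIlo (-0.93 ± 0.32, adjusted p = 0.0461). Of 7 further signature genes of lipid-associated macrophages, 2 were higher and 3 lower; Itgax, the integrin CD11c, was lower at -3.00 ± 0.10 and Syngr1, a synaptogyrin, higher at 1.93 ± 0.24. Of 6 further ABCA and ABCG transporters 1 was higher and 1 lower, and the 1 further fatty acid binding protein tested did not pass.

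Genes of other cell types moved with the fresh subsets. Of 6 dendritic cell genes, 5 were detected in fresh MHC-IIlo and 6 in fresh MHC-IIhi TAMs, and their sum was 1.54 to 3.95 CPM in the MHC-IIlo and 13.4 to 32.0 CPM in the MHC-IIhi libraries. All 4 B cell genes were detected in both, at 0.106 to 2.1 CPM in the MHC-IIlo and 8.69 to 17.4 CPM in the MHC-IIhi libraries, and T and NK cell genes summed to 2.14 to 4.58 CPM and 10.7 to 14.2 CPM in the same order. Neutrophil genes, mostly Mmp8, summed to 348 to 618 CPM in the MHC-IIlo and 127 to 239 CPM in the MHC-IIhi libraries, and epithelial genes to 138 to 281 CPM and 507 to 580 CPM. Of the epithelial genes Cdh1 averaged 113 CPM in the MHC-IIlo and 438 CPM in the MHC-IIhi libraries, and Krt8 98.2 and 93.5 CPM. Epcam and Krt18 were at or below 0.567 CPM in each fresh library. All 6 fibroblast genes were detected in both, at a sum of 31.4 to 109 CPM in the MHC-IIlo and 19.4 to 66.8 CPM in the MHC-IIhi libraries, with overlap. The part of such cells in the differences of the 10 genes was not tested.

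Culture for 24 h without lactate changed most of the 10 genes in both subsets, against fresh cells. Gpnmb rose 46.5-fold in MHC-IIlo and 36.1-fold in MHC-IIhi TAMs, Fabp4 12.6-fold and 9.31-fold, and Lgals3 4.63-fold and 2.37-fold. Fabp5, Abcg1 and Trem2 rose in both subsets, and Apoe fell in both, by 3.40 and 4.93 times. Lpl rose in MHC-IIlo and fell in MHC-IIhi TAMs, and Abca1 rose in MHC-IIhi TAMs alone. In MHC-IIlo 7 genes rose and 1 fell, where 57.5% of the 13682 genes tested passed, 27.6% higher and 29.9% lower. In MHC-IIhi 7 rose and 2 fell, where 62.0% passed, 31.6% higher and 30.4% lower. With more than 1 in 2 of all genes passing, the count of calls says little about these 10, and their sizes carry the description.

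Gpnmb measured 12163, 14669, 11635, 11886 and 12289 CPM in cultured MHC-IIlo libraries, against 217, 299.8, 303, 272 and 264 CPM in fresh ones. In MHC-IIhi TAMs it measured 6019, 6963, 4024, 5754 and 4765 CPM after culture, against 138, 181, 194, 129.8 and 123 CPM fresh. The lowest cultured library held more than 10 times as much as the highest fresh library. The log2 changes were 5.54 ± 0.19 in MHC-IIlo (adjusted p = 1.3e-15) and 5.18 ± 0.18 in MHC-IIhi (adjusted p = 1.5e-15), and 3.92 and 4.53 on the authors' FPKM values. Trem2 averaged 418 ± 53.0 CPM in cultured and 211 ± 19.5 CPM in fresh MHC-IIlo TAMs (0.99 ± 0.15, adjusted p = 9.2e-06), without overlap. In MHC-IIhi TAMs Trem2 measured 286, 311, 158, 249 and 189 CPM after culture, against 170.3, 144, 178, 222 and 189 CPM fresh, with overlap (0.41 ± 0.15, adjusted p = 0.0238). That last call was lost in the fit over all 30 libraries (adjusted p = 0.165) and without any 1 of 4 libraries, no-lactate MHC-IIhi 3 or 4 and fresh MHC-IIhi 1 or 2 (0.29 to 0.39, adjusted p = 0.0501 to 0.0933).

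Apoe fell to 1285, 1843, 1185, 1302 and 1558 CPM in cultured MHC-IIlo libraries, against the fresh values of 3741 CPM or more. In cultured MHC-IIhi libraries it measured 361, 316, 323, 329 and 239 CPM, each below the lowest fresh one. The changes were -1.76 ± 0.22 in MHC-IIlo (adjusted p = 5.6e-07) and -2.30 ± 0.22 in MHC-IIhi TAMs (adjusted p = 1.2e-08). Abcg1 averaged 429.5 ± 124 CPM in cultured and 197 ± 36.3 CPM in fresh MHC-IIlo TAMs (1.13 ± 0.19, adjusted p = 2.5e-05), and 369.8 ± 84.4 CPM in cultured and 196 ± 25.4 CPM in fresh MHC-IIhi TAMs (0.92 ± 0.19, adjusted p = 2.0e-04). The other sterol exporter, Abca1, measured 477, 526, 503, 415 and 439 CPM in cultured MHC-IIhi libraries, each above the fresh ones (1.09 ± 0.22, adjusted p = 1.6e-04). In MHC-IIlo TAMs Abca1 measured 481, 610.3, 518, 518 and 451 CPM after culture, within or below the fresh values, and did not pass (-0.46 ± 0.21, adjusted p = 0.0709). It did pass, still lower, without fresh MHC-IIlo library 2 (-0.54, adjusted p = 0.0455) or 3 (-0.58, adjusted p = 0.0249), in the fit over all 30 libraries (-0.47, adjusted p = 0.0452) and on FPKM values (-0.48, adjusted p = 0.0208).

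Lpl measured 585, 301, 326, 338 and 359 CPM in cultured MHC-IIlo libraries, each above the fresh ones (1.49 ± 0.21, adjusted p = 3.7e-06). In cultured MHC-IIhi libraries it measured 195, 232, 219, 327 and 106 CPM, a range that reached into the fresh one (-0.59 ± 0.21, adjusted p = 0.0176). The fall in MHC-IIhi did not pass in the fit over all 30 libraries (-0.60, adjusted p = 0.325), and was -1.05 on FPKM values, where it passed. Fabp4 measured 60.9, 54.4, 56.6, 49.9 and 66.3 CPM in cultured MHC-IIlo libraries, against 2.28, 3.41, 5.63, 3.66 and 7.94 CPM in fresh ones. In MHC-IIhi TAMs it measured 13.1, 23.9, 20.97, 36.5 and 7.56 CPM after culture, against 3.16, 0.553, 1.18, 3.13 and 2.87 CPM fresh. Cultured and fresh libraries did not overlap in either subset, and the changes were 3.65 ± 0.39 (adjusted p = 6.8e-08) and 3.22 ± 0.41 (adjusted p = 6.9e-07). Fabp5 averaged 1658 ± 211 CPM in cultured and 631 ± 149 CPM in fresh MHC-IIlo TAMs (1.40 ± 0.24, adjusted p = 4.7e-05), and 754 ± 292 CPM in cultured and 252 ± 75.1 CPM in fresh MHC-IIhi TAMs (1.58 ± 0.25, adjusted p = 9.9e-06).

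Of the secreted proteins, Lgals3 averaged 6423 ± 545 CPM in cultured and 1393 ± 196 CPM in fresh MHC-IIlo TAMs (2.21 ± 0.14, adjusted p = 1.6e-11). In MHC-IIhi TAMs it averaged 4348 ± 777 CPM after culture and 1845 ± 244 CPM fresh (1.24 ± 0.13, adjusted p = 6.6e-08), and neither pair of groups overlapped. On FPKM values the changes of Lgals3 in MHC-IIhi (0.70), of Fabp4 in MHC-IIhi (1.64) and of Fabp5 in MHC-IIlo (0.78) were smaller and still passed. Spp1 was the only one of the 10 that passed in neither subset, at 1711 ± 407 CPM in cultured and 1880 ± 223 CPM in fresh MHC-IIlo TAMs (-0.13 ± 0.22, adjusted p = 0.634) and at 1003 ± 330.2 CPM in cultured and 1058 ± 266 CPM in fresh MHC-IIhi TAMs (-0.07 ± 0.22, adjusted p = 0.794).

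**Figure D4:**
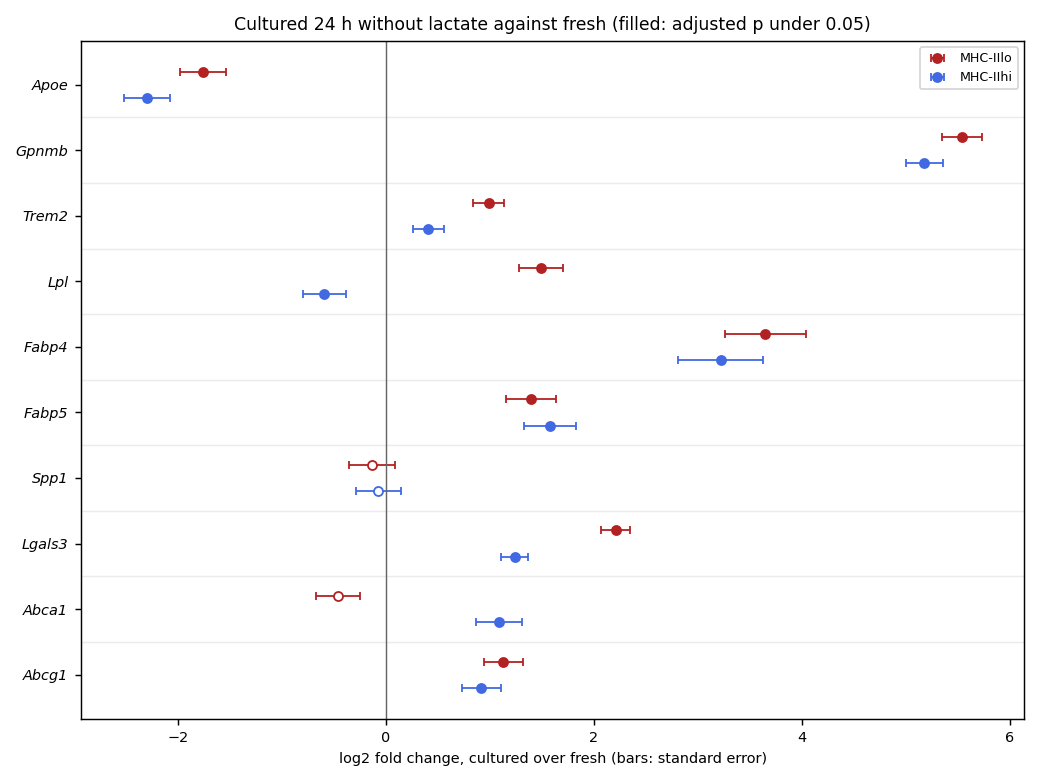
Log2 fold change of TAMs cultured 24 h without lactate over fresh TAMs, with its standard error, in MHC-IIlo (red) and MHC-IIhi (blue), 5 libraries a group; filled points have an adjusted p under 0.05. Gpnmb stands at 5.54 and 5.18, Apoe at -1.76 and -2.30, and the points of Lpl and Abca1 lie on opposite sides of 0.

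The culture change itself differed between the subsets for 3 of the 10 genes, tested as MHC-IIlo change minus MHC-IIhi change. Of all genes, 14.3% passed this test, 6.03% with the higher and 8.27% with the lower change in MHC-IIlo. The difference was 2.08 ± 0.30 for Lpl (adjusted p = 6.3e-05), 0.97 ± 0.19 for Lgals3 (adjusted p = 0.00133) and -1.55 ± 0.30 for Abca1 (adjusted p = 0.00142). These are the genes of which Lpl and Lgals3 were lower and Abca1 higher in fresh MHC-IIlo TAMs, and the fresh libraries enter both tests. Trem2 (0.59 ± 0.21, adjusted p = 0.0720) and Apoe (0.54 ± 0.30, adjusted p = 0.264) did not pass. Without fresh MHC-IIhi library 2 both did (Apoe 0.73, adjusted p = 0.0347, and Trem2 0.66, adjusted p = 0.0463), and so did Trem2 without no-lactate MHC-IIhi library 3 (0.66) or 4 (0.70). On FPKM values Trem2 (0.71, adjusted p = 0.0108) and Fabp4 (1.28, adjusted p = 0.00754) passed as well. In the fit over all 30 libraries the difference of Lpl, 2.08, had an adjusted p of 0.0683.

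Lysosomal genes moved with culture in both subsets. Of the 20 genes of the MITF family and lysosome, 15 rose and 1 fell in MHC-IIlo (median log2 change 0.93) and 14 rose and 2 fell in MHC-IIhi (median 1.04). Lipa, the lysosomal acid lipase that frees cholesterol from its esters, rose by 2.98 ± 0.16 and 2.25 ± 0.16 on the log2 scale, and Npc2, which carries the freed cholesterol, by 1.73 ± 0.14 and 1.85 ± 0.14. Of 9 LXR receptors and targets, 2 rose and 6 fell in MHC-IIlo (median -0.50) and 2 rose and 5 fell in MHC-IIhi (median -0.32), with the desaturase Scd2 at -1.99 ± 0.15 and -1.86 ± 0.15. Of 9 uptake receptors, 2 rose and 6 fell in MHC-IIlo and 3 rose and 3 fell in MHC-IIhi, with the fatty acid receptor Cd36 higher at 1.55 ± 0.20 and 2.67 ± 0.21. Of 11 genes of lipid storage and release, 6 rose and 4 fell in MHC-IIlo and 4 rose and 4 fell in MHC-IIhi; Acsl1, which activates fatty acids, rose by 2.20 ± 0.12 and 2.80 ± 0.12, and Soat1, which esterifies cholesterol, by 1.55 ± 0.10 and 1.44 ± 0.10.

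The nuclear receptor Pparg, of which Lpl, Fabp4 and Cd36 are known targets, rose in MHC-IIlo TAMs, with 8.18 ± 1.92 CPM in cultured and 1.06 ± 0.352 CPM in fresh cells (2.94 ± 0.28, adjusted p = 1.4e-08). It averaged 2.92 ± 0.964 CPM in cultured and 2.04 ± 0.649 CPM in fresh MHC-IIhi TAMs, and the change differed between the subsets by 2.43 ± 0.39 (adjusted p = 2.1e-04). The part of Pparg in the changes of Lpl, Fabp4 and Cd36 was not tested. Of the 5 PPAR receptors and targets 4 rose in MHC-IIlo, and 2 rose and 1 fell in MHC-IIhi; Angptl4, an inhibitor of lipoprotein lipase, rose by 1.68 ± 0.29 and 1.65 ± 0.29. The further fatty acid binding proteins Fabp3 (3.93 ± 0.61 and 3.86 ± 0.67) and Fabp7 (3.57 ± 0.32 and 3.93 ± 0.34), the 2 of 6 that were tested, rose in both subsets. Both were near the floor in fresh cells. Fabp3 averaged 0.215 and 0.106 CPM fresh, against 3.30 and 1.71 CPM in no-lactate MHC-IIlo and MHC-IIhi TAMs. Fabp7 averaged 0.779 and 0.503 CPM fresh, against 9.3 and 7.8 CPM after culture in the same order. In the fresh libraries alone only 1 of the 6 could be tested, so the other passed the filter through the cultured libraries. Of 7 further ABCA and ABCG transporters 1 rose and 6 fell in each subset, with Abcg3 at -2.56 ± 0.11 and -2.85 ± 0.12. Of 9 genes of Trem2 signalling, 3 rose and 3 fell in MHC-IIlo and 3 rose and 4 fell in MHC-IIhi, the kinase Syk by 1.03 ± 0.11 and 0.98 ± 0.11. Of 11 partners of osteopontin and galectins, 5 rose and 5 fell in MHC-IIlo and 5 rose and 4 fell in MHC-IIhi, with the galectin-3 ligand Lgals3bp at 2.55 ± 0.16 and 2.82 ± 0.16. Of the 7 further signature genes 3 rose and 2 fell in each subset, with Itgax at -2.96 ± 0.16 and -3.99 ± 0.16.

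Marker lists also moved with culture. The 9 macrophage genes summed to 6033 to 8463 CPM in cultured and 11020 to 14605 CPM in fresh MHC-IIlo libraries, and to 5167 to 8114 CPM in cultured and 8153 to 11585 CPM in fresh MHC-IIhi libraries. Endothelial cells hold much Fabp4 in other tissues. The 6 endothelial genes summed to 274 to 369 CPM in cultured and 92.6 to 116 CPM in fresh MHC-IIlo libraries and to 315 to 647 CPM in cultured and 91.9 to 129.5 CPM in fresh MHC-IIhi libraries. Kdr made up most of that sum after culture, with a mean of 302 CPM in no-lactate and 8.80 CPM in fresh MHC-IIlo TAMs. Pecam1, most of the sum in fresh cells, went the other way, with means of 5.73 CPM in no-lactate and 81.7 CPM in fresh MHC-IIlo TAMs and of 31.8 CPM in no-lactate and 98.6 CPM in fresh MHC-IIhi TAMs, while Gpihbp1 was at 0 in both no-lactate groups and Tek was at or below 0.114 CPM in them. Neutrophil genes summed to 689 to 977 CPM in cultured and 348 to 618 CPM in fresh MHC-IIlo libraries, nearly all of it Mmp8, with S100a9 at or below 0.172 CPM in no-lactate libraries. In MHC-IIhi libraries they summed to 668 to 993 CPM after culture and 127 to 239 CPM fresh. The 6 dendritic cell genes summed to 92.0 to 274 CPM in cultured and 13.4 to 32.0 CPM in fresh MHC-IIhi libraries, and in MHC-IIlo libraries to 0.502 to 4.21 CPM after culture and 1.54 to 3.95 CPM fresh. In MHC-IIhi TAMs Ccr7 made up most of that sum after culture, with means of 146 CPM in no-lactate and 5.07 CPM in fresh cells. Flt3 and Zbtb46 also had higher means there after culture. Cd209a (0.0156 CPM in no-lactate and 12.5 CPM in fresh MHC-IIhi TAMs), Clec9a and Xcr1 had lower ones. The 4 epithelial genes summed to 43.5 to 59.9 CPM in cultured and 138 to 281 CPM in fresh MHC-IIlo libraries, and to 38.6 to 84.2 CPM in cultured and 506.5 to 579.8 CPM in fresh MHC-IIhi libraries, with Krt18 at 0 in both no-lactate groups. The 4 B cell genes summed to 1.31 to 2.82 CPM in cultured and 8.69 to 17.4 CPM in fresh MHC-IIhi libraries. Their part in the changes was not tested; the adipocyte genes summed to at most 0.327 CPM in any library.

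After 24 h without lactate, 5 of the 10 genes were higher in MHC-IIlo than in MHC-IIhi TAMs and none was lower. Apoe was 4.60 times, Fabp4 2.85 times and Gpnmb 2.29 times higher, and Trem2 and Spp1 less than 2 times. Of the 13593 genes tested among the 20 cultured libraries, 20.8% passed, 9.20% higher and 11.6% lower in MHC-IIlo. Lpl and Abca1, which differed between fresh subsets, did not pass.

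Apoe did not overlap between the subsets, at 1285, 1843, 1185, 1302 and 1558 CPM in no-lactate MHC-IIlo libraries against 361 CPM at most in no-lactate MHC-IIhi libraries. The log2 difference was 2.20 ± 0.22 (adjusted p = 3.8e-07). Gpnmb, with the library values given above, did not do so either (1.19 ± 0.25, adjusted p = 0.00126), but its difference was 0.22 on the authors' FPKM values and did not pass there (adjusted p = 0.219). Trem2 measured 459.8, 479, 356, 373 and 422 CPM in no-lactate MHC-IIlo libraries, each above the MHC-IIhi ones (0.82 ± 0.29, adjusted p = 0.0474). Fabp4 was also without overlap (1.51 ± 0.48, adjusted p = 0.0306). Spp1 measured 1211, 2241, 1980, 1476 and 1649 CPM in the MHC-IIlo and 1059, 1321, 580.4, 751 and 1302 CPM in MHC-IIhi libraries, with the lowest MHC-IIlo library inside the MHC-IIhi range (0.78 ± 0.27, adjusted p = 0.0447).

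The calls of Trem2, Fabp4 and Spp1 were narrow. That of Trem2 ended without any 1 of the 10 no-lactate libraries but MHC-IIhi 4 (adjusted p up to 0.118), that of Fabp4 without MHC-IIlo 1, 4 or 6 or MHC-IIhi 3, 4, 5 or 7 (up to 0.0803), and that of Spp1 without MHC-IIlo 3, 4, 5 or 6 or MHC-IIhi 3, 5 or 6 (up to 0.121). Fabp5, at 1658 ± 211 CPM in the MHC-IIlo and 754 ± 292 CPM in MHC-IIhi TAMs, and Lgals3, at 6423 ± 545 CPM and 4348 ± 777 CPM in the same order, did not overlap between the subsets yet did not pass (1.15 ± 0.44, adjusted p = 0.0702, and 0.57 ± 0.23, adjusted p = 0.0895). The fit shares its spread with the lactate libraries, and without library lactate MHC-IIlo 5 both passed (Fabp5 1.14 ± 0.27, adjusted p = 0.00334, and Lgals3 0.56 ± 0.15, adjusted p = 0.00781), which brings the count to 7. The share of all genes that passed in that fit is not given here. Lpl (0.83 ± 0.60), Abca1 (0.13 ± 0.12) and Abcg1 (0.23 ± 0.23) had adjusted p of 0.373, 0.507 and 0.545.

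Of the 20 lysosome genes, 10 were higher in no-lactate MHC-IIlo TAMs and none was lower (median 0.60 against -0.01 for all genes), among them the tetraspanin Cd63 (1.09 ± 0.14) and the protease Ctsk (1.66 ± 0.26). Pparg was higher in MHC-IIlo (1.50 ± 0.45, adjusted p = 0.0214) and Ppard lower (-0.64 ± 0.18), as part of 2 higher and 1 lower among 5 PPAR genes. None of 8 uptake receptors was higher and 3 were lower, Olr1 at -3.42 ± 0.36. Of 9 LXR genes 1 was higher and 1 lower, of 10 storage genes 1 and 3, of 7 signature genes 1 and 2, of 7 transporters 0 and 1, of 11 osteopontin and galectin partners 0 and 2, and of 9 Trem2 signalling genes and 2 fatty acid binding proteins none passed. Dendritic cell genes, mostly Ccr7, summed to 0.502 to 4.21 CPM in no-lactate MHC-IIlo and 92.0 to 274 CPM in no-lactate MHC-IIhi libraries, with all 6 detected in each group, and B cell genes to 0.152 to 0.721 CPM and 1.31 to 2.82 CPM in the same order. Their part in the differences was not tested.

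Lactate at 20 mM changed none of the 10 genes past the threshold in either subset. In MHC-IIlo TAMs 1.49% of the 13593 genes tested passed, 0.905% higher and 0.581% lower with lactate, and in MHC-IIhi TAMs 0.250% passed, 0.206% higher and 0.0441% lower. By edgeR at an unadjusted p under 0.05, 0 of the 10 members stood out in MHC-IIlo and 1, Abca1, in MHC-IIhi. Of the 13593 genes tested, 2373 had such a p in MHC-IIlo and 1342 in MHC-IIhi. DESeq2 also called 0 of the 10 in either subset, and limma voom with quality weights called 1 in MHC-IIlo, Lpl. At the adjusted threshold, with 0 of 10 and shares this low, the count sits where the background lies.

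Lpl varied widely among the lactate libraries. It measured 517, 94.5, 61.6, 13.2 and 101 CPM in lactate MHC-IIlo libraries, against 585, 301, 326, 338 and 359 CPM in no-lactate MHC-IIlo libraries. Library 1 with lactate lay within the no-lactate range and the other 4 lay below it, library 5 the lowest. The log2 difference was -1.27 ± 0.61 (adjusted p = 0.287 by edgeR). It was -0.97 ± 0.52 without library lactate MHC-IIlo 5 (adjusted p = 0.402) and -2.50 without library lactate MHC-IIlo 1 (adjusted p = 0.0103). It was -1.84 by limma voom with quality weights (adjusted p = 0.00621) and -1.93 by edgeR with a block for the library number (adjusted p = 0.0192). Whether it passed thus turned on library 1, on the tool and on the block. Library 1 was also the highest in no-lactate MHC-IIlo and in lactate MHC-IIhi TAMs. In MHC-IIhi TAMs Lpl measured 373, 170.4, 105, 133 and 74.8 CPM with lactate, against 195, 232, 219, 327 and 106 CPM without, with wide overlap (-0.32 ± 0.60, adjusted p = 0.905).

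Abca1 was the one gene with a small unadjusted p in MHC-IIhi TAMs. It measured 564, 648, 451, 628 and 646 CPM with lactate, against 477, 526, 503, 415 and 439 CPM without, where 4 of 5 lactate libraries lay above the no-lactate range (0.32 ± 0.13, adjusted p = 0.374). In MHC-IIlo TAMs it averaged 473 ± 65.6 CPM with and 516 ± 60.0 CPM without lactate (-0.13 ± 0.12). Apoe averaged 1303 ± 389 CPM with and 1435 ± 267 CPM without lactate in MHC-IIlo TAMs (-0.14 ± 0.21), and 298 ± 70.6 CPM with and 313 ± 44.8 CPM without in MHC-IIhi TAMs (-0.06 ± 0.21). Abcg1 differed by 0.00 ± 0.23 in MHC-IIlo and -0.19 ± 0.23 in MHC-IIhi TAMs.

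Gpnmb and Trem2 had lower means with lactate in both subsets, within the spread. Gpnmb averaged 9130 ± 3026 CPM with and 12528 ± 1223 CPM without lactate in MHC-IIlo TAMs (-0.46 ± 0.24, adjusted p = 0.337), and 4367 ± 1233 CPM with and 5505 ± 1139 CPM without in MHC-IIhi TAMs (-0.32 ± 0.24, adjusted p = 0.709). Trem2 averaged 287 ± 121 CPM with and 418 ± 53.0 CPM without lactate in MHC-IIlo TAMs (-0.54 ± 0.28, adjusted p = 0.333), and 174 ± 60.6 CPM with and 239 ± 64.3 CPM without in MHC-IIhi TAMs (-0.44 ± 0.28, adjusted p = 0.651). The fatty acid carriers differed by -0.50 ± 0.47 (Fabp4) and -0.45 ± 0.44 (Fabp5) in MHC-IIlo and by -0.19 ± 0.48 and -0.20 ± 0.43 in MHC-IIhi TAMs. Spp1 differed by 0.34 ± 0.27 and 0.00 ± 0.27, and Lgals3 by -0.21 ± 0.23 and 0.02 ± 0.23, in MHC-IIlo and MHC-IIhi TAMs in that order. In MHC-IIlo the differences of these genes but Spp1 were closer to 0 without library lactate MHC-IIlo 5, at -0.26 ± 0.19 for Gpnmb, -0.31 ± 0.22 for Trem2, -0.20 ± 0.33 for Fabp4, -0.15 ± 0.28 for Fabp5 and 0.00 ± 0.16 for Lgals3. That of Apoe was then 0.05 ± 0.16 and that of Abcg1 0.16 ± 0.21, and none passed (adjusted p = 0.545 to 0.999 by edgeR over these 7 genes). Standard errors of 0.12 to 0.61 in MHC-IIlo bound what these 5 libraries a group could show.

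**Figure D5:**
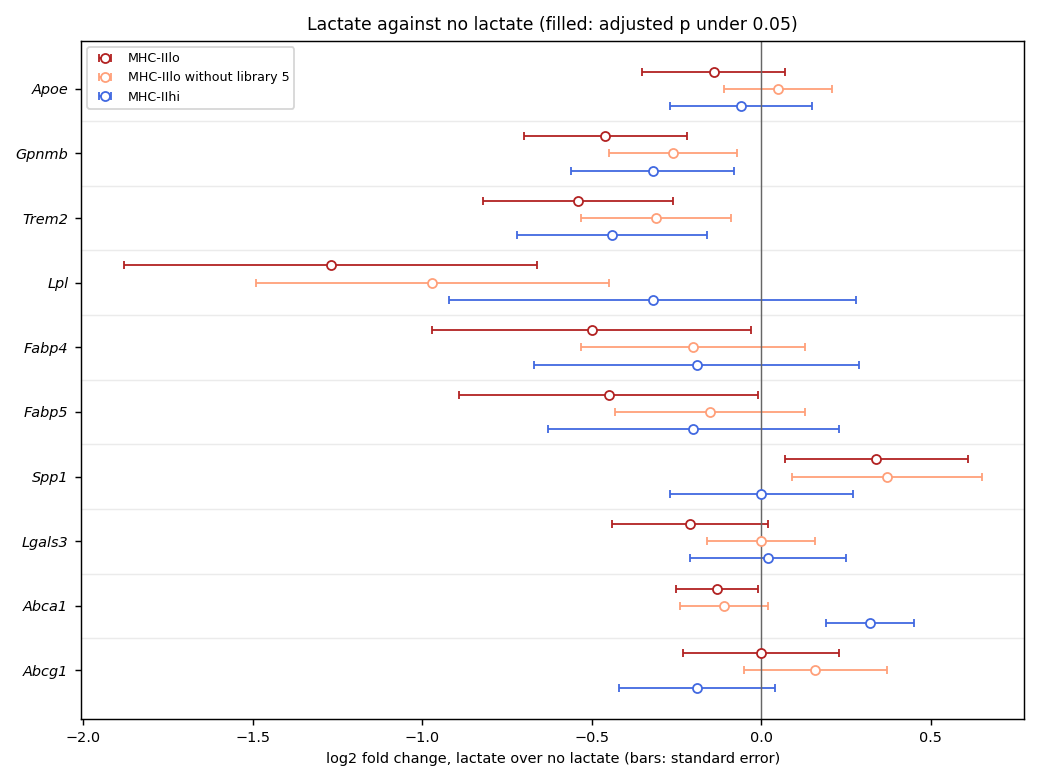
Log2 fold change of TAMs cultured with lactate over those cultured without, with its standard error, in MHC-IIlo (red), in MHC-IIlo without library lactate MHC-IIlo 5 (light red) and in MHC-IIhi (blue); a filled point would have an adjusted p under 0.05. None is filled, and Lpl in MHC-IIlo lies farthest from 0, at -1.27.

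Whether lactate acted differently in the subsets was tested as the MHC-IIlo difference minus the MHC-IIhi difference. None of the 10 genes passed, nor did any of the 13593 genes tested (0%, with 0% higher and 0% lower). Over all genes, 1018 had an unadjusted p under 0.05 by edgeR, and DESeq2 called 3 and limma voom 2. Among the 10, Abca1 alone had an unadjusted p under 0.05 (-0.45 ± 0.18, adjusted p = 0.661), and Lpl differed by -0.95 ± 0.85 (adjusted p = 0.772). Without library lactate MHC-IIlo 5 none passed either, and the differences ran from -0.65 ± 0.70 (Lpl) to 0.38 ± 0.39 (Spp1), with those of Apoe, Gpnmb, Trem2 and Fabp5, all below 0 with it, at 0.12 ± 0.22, 0.07 ± 0.26, 0.14 ± 0.30 and 0.06 ± 0.38. Without that library Fabp4 went from -0.31 ± 0.68 to -0.00 ± 0.48, Lgals3 from -0.23 ± 0.33 to -0.02 ± 0.22 and Abcg1 from 0.19 ± 0.32 to 0.36 ± 0.29. The pathway lists moved little with lactate: Arl4c, a small GTPase that LXR induces, was 1 of 9 LXR genes higher in MHC-IIlo (0.67 ± 0.12, adjusted p = 0.00821), and the tetraspanin Cd9 was 1 of 7 signature genes higher there (0.65 ± 0.14, adjusted p = 0.0235). No other list gene passed in either subset. Neutrophil genes, mostly Mmp8, summed to 1546 to 2261 CPM in lactate MHC-IIhi and 668 to 993 CPM in no-lactate MHC-IIhi libraries, and their part was not tested.

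With lactate present, 3 of the 10 genes were higher in MHC-IIlo than in MHC-IIhi TAMs and none was lower, where 22.4% of genes passed, 9.13% higher and 13.3% lower. Apoe measured 1486, 1413, 1524, 612 and 1482 CPM in lactate MHC-IIlo libraries, against 366, 379.9, 274, 250.2 and 222 CPM in lactate MHC-IIhi libraries, without overlap even in library 5 (2.12 ± 0.22, adjusted p = 6.6e-07). Spp1 measured 1817, 1836, 3178, 2038 and 1985 CPM in the MHC-IIlo and 1034, 651, 1469, 573 and 1259 CPM in MHC-IIhi libraries, also without overlap (1.12 ± 0.27, adjusted p = 0.00506). Gpnmb measured 12198, 10550, 9421, 4124 and 9355 CPM in the MHC-IIlo and 6117, 4383, 4912, 3369 and 3054 CPM in MHC-IIhi libraries, where only MHC-IIlo library 5 fell among the MHC-IIhi values (1.06 ± 0.24, adjusted p = 0.00347; 0.45 on FPKM values, still past the threshold).

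Without library lactate MHC-IIlo 5 the count went to 7 of 10, while calls over all genes went from 3045 to 3485. Trem2 (0.95 ± 0.22, adjusted p = 0.00283), Fabp4 (1.50 ± 0.34, adjusted p = 0.00262), Fabp5 (1.19 ± 0.28, adjusted p = 0.00338) and Lgals3 (0.55 ± 0.16, adjusted p = 0.0133) then passed, against 0.72 ± 0.29, 1.2 ± 0.48, 0.89 ± 0.44 and 0.34 ± 0.23 with it. In Fabp5 that library held 122.5 CPM where the other lactate MHC-IIlo libraries held 1307 to 1756 CPM and the MHC-IIhi libraries 309 to 970.3 CPM. Lpl (-0.12 ± 0.60, and 0.18 ± 0.51 without it), Abca1 (-0.32 ± 0.13, adjusted p = 0.0751) and Abcg1 (0.42 ± 0.23, and 0.58 ± 0.21 without it) passed neither way. Leaving out other libraries, Trem2 passed without lactate MHC-IIhi 1 (0.94, adjusted p = 0.0268), and Abca1, lower in MHC-IIlo, without lactate MHC-IIlo 1 (-0.40, adjusted p = 0.0220) or lactate MHC-IIhi 4 (-0.40, adjusted p = 0.0218). These subset comparisons and the lactate comparisons use the same libraries, so their values stand side by side and are not independent. Of 20 lysosome genes 8 were higher and 1 lower (median 0.54), with Cd63 at 1.19 ± 0.14 and the proton pump subunit Atp6v0d2 at 1.72 ± 0.29. Of 8 uptake receptors 1 was higher and 5 lower, of 10 storage genes 2 and 3, of 11 osteopontin and galectin partners 2 and 1, of 7 signature genes 3 and 1, of 9 LXR genes 1 and 1, of 7 transporters 1 and 1, of 9 Trem2 signalling genes 0 and 2, of 5 PPAR genes 1 and 0 and of 2 fatty acid binding proteins 1 and 0. Dendritic cell genes summed to 0.844 to 1.15 CPM in lactate MHC-IIlo and 92.6 to 269 CPM in lactate MHC-IIhi libraries, and their part was not tested.

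Each gene was last set beside the 5183 genes with an average log2 CPM of at least 5, by the root mean square difference of log2 profiles over the 6 group means, each centred on its own mean. Closest to Apoe were Rnase4 (0.23) and Wfdc17 (0.27), to Abca1 Hmox1 (0.25) and Igf2r (0.26), and to Abcg1 Rit1 (0.07) and Sephs2 (0.08). Lpl had Clec12a (0.19) and Lilra6 (0.43), Fabp4 had Ahnak2 (0.30) and Bhlhe41 (0.33), and Fabp5 had Slc30a1 (0.19) and Ctsb (0.19). Trem2 had Vipas39 (0.08) and Steap3 (0.11), and Gpnmb, the gene with the largest range, had Il18bp (0.45) and Ifit1 (0.49). Spp1 had St6galnac4 (0.14) and Smpd1 (0.16), and Lgals3 had Ly6e (0.10) and Pik3r5 (0.12). None of these neighbours was one of the 10. Among the 10 themselves the closest pair was Lgals3 and Abcg1 (0.37) and the farthest Apoe and Gpnmb (3.43).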

How the data were processed

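Bulk RNA-seq of 30 libraries was used. Per the submitters' processing notes, reads went through Trimmomatic, STAR and featureCounts with GRCm38; versions, order and strand setting are not given in the sources used here. The authors deposited whole-number counts for 46603 genes and FPKM values for 13778 genes. Fragments per kilobase (FPKM) as deposited had, once multiplied by gene length, the same distribution in each library, and served as an alternative. Columns were matched to groups by their headers; the numbers of cultured libraries there differ from those of the labels.

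Counts were tested in R 4.3.3 with edgeR 4.0.16 (filterByExpr, TMM, quasi-likelihood F test, Benjamini-Hochberg adjustment over all genes tested, threshold 0.05), in 3 fits: 10 fresh, 20 cultured, and 20 fresh and no-lactate libraries, with no block. Alternatives were RLE factors, no filter, DESeq2 1.42.0, limma 3.58.1 (voom with quality weights; log2(FPKM + 1) and log2(FPKM + 0.1)), 1 fit over all libraries, a replicate block, each library left out and, added after seeing the data, library lactate MHC-IIlo 5 left out. The fits were tested on simulated data. The 10 genes, pathway lists, markers and motifs were chosen with earlier results of these data known. All 10 genes are named in each comparison, and of each list up to 2 genes with the smallest p. The values of 1 gene that this rule names are not reported here, and it stays in the count of its list. The number of libraries and the spread between them limit precision; p-values measure the spread between these libraries.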

Additional observations from a re-analysis of the deposited data

Results flagged for a closer look

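In 8 of the 60 groups of 5 libraries (10 genes in 6 groups), 1 library stood apart from the other 4 by Dixon's test at 95%, where chance marks about 1 in 20. Library lactate MHC-IIlo 5 was low in Apoe (612 CPM, others 1413 to 1524), Fabp4 (3.42 CPM, others 45.9 to 52.6) and Fabp5 (122.5 CPM, others 1307 to 1756). Library lactate MHC-IIlo 1 was high in Lpl (517 CPM, others 13.2 to 101) and in Abca1 (585 CPM, others 426 to 465), and library lactate MHC-IIlo 4 was high in Spp1 (3178 CPM, others 1817 to 2038). Of the no-lactate MHC-IIlo libraries, library 3 was high in Gpnmb (14669 CPM, others 11635 to 12289) and library 1 in Lpl (585 CPM, others 301 to 359).

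The change with culture differed between MHC-IIlo and MHC-IIhi TAMs, by the test of the difference itself, for Lpl (2.08 on the log2 scale, higher in MHC-IIlo), Lgals3 (0.97, higher in MHC-IIlo) and Abca1 (-1.55, lower in MHC-IIlo).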

How the results depend on the processing

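Of 2010 recomputed values of the 10 genes, 1907 stayed on their side of the threshold, 40 lost and 63 gained a call, and none that passed in both changed sign; 95 values that passed neither way changed sign. Between no-lactate subsets, 3 genes passed with no filter on low counts, against 5, and 2 to 4 with 1 library left out. Between lactate subsets, 5 passed by DESeq2, 9 by voom with quality weights, 7 without library lactate MHC-IIlo 5 and 8 with that and a replicate block, against 3 (leave-one-out 3 to 7). With lactate in MHC-IIlo, 1 gene, Lpl, passed by voom, with the block and with the block without library 5, against 0 (leave-one-out 0 to 1). For the culture difference between subsets, 5 passed on log2(FPKM + 1) with or without a filter, against 3 (leave-one-out 3 to 5).

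Over all genes, lactate in MHC-IIlo gave 202 calls, against 715 by DESeq2, 1502 by voom, 531 in 1 fit over 30 libraries, 1111 with the block, 133 without library 5, 631 with both, and 53 to 758 with 1 library left out. Lactate in MHC-IIhi gave 34, against 133 by DESeq2, 53 in 1 fit, 59 on unfiltered FPKM, 81 with the block, 54 without library 5, 255 with both, and 8 to 27. No-lactate subsets gave 2830, against 4335 by voom. Lactate subsets gave 3045, against 3508 by DESeq2, 4040 by voom and 3485 without library 5. The lactate difference between subsets gave 0, against 3 by DESeq2, 2 by voom, 1 in 1 fit, 2 with the block with or without library 5, and 0 to 8. Causes were not tested.

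Replicate numbers are not stated to mark shared mice or days and were not taken to pair the samples, since not every same-numbered pair of the groups compared correlated above 0.1: fresh libraries did at 0.07 to 0.50, lactate and no-lactate ones at 0.05 to 0.34 in MHC-IIlo and -0.32 to 0.44 in MHC-IIhi. The same number was the best partner in 4 of 5 fresh and 4 of 5 MHC-IIlo pairs, a hint from the data and not from the design. With the block the fresh subsets gave 9 calls among the 10 genes, against 7, and the standard error of Abca1 there was 0.10, against 0.25. Calls over all genes in that fit are not given here. The block added calls for Trem2 (0.23, adjusted p = 0.00411) and Fabp4 (1.14, 0.0251) between fresh subsets, Trem2 between lactate subsets (0.66, 0.0317), Lpl with lactate (-1.93, 0.0192) and Abca1 with culture in MHC-IIlo (-0.47, 0.0492), and ended that of Fabp4 between no-lactate subsets (1.22, 0.0943); Lpl with culture in MHC-IIhi was -0.38, against -0.59. Low counts limit Fabp4 in fresh cells, with 40 to 150 counts a library in MHC-IIlo and 10 to 63 in MHC-IIhi TAMs.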

Other observations

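Other genes of the pathway lists also differed between the subsets in their change with 24 h of culture, tested as MHC-IIlo change minus MHC-IIhi change. The scavenger receptor Marco differed by -4.55 ± 0.70 (adjusted p = 1.6e-04) and averaged 0.464 ± 0.402 CPM in no-lactate and 1.09 ± 0.529 CPM in fresh MHC-IIlo TAMs, and 4.45 ± 1.99 CPM in no-lactate and 0.446 ± 0.194 CPM in fresh MHC-IIhi TAMs (SD, n = 5 each). Olr1, a receptor for oxidised lipoprotein, differed by -1.97 ± 0.35 (adjusted p = 6.1e-04). It was also low, at 0.391 ± 0.104 CPM in no-lactate and 2.30 ± 0.426 CPM in fresh MHC-IIlo TAMs. In MHC-IIhi TAMs it averaged 4.26 ± 1.65 CPM in no-lactate and 6.33 ± 1.28 CPM in fresh cells. Tfeb, a transcription factor of lysosomal genes, differed by 0.86 ± 0.14 (adjusted p = 3.0e-04). Ch25h, which makes the sterol 25-hydroxycholesterol, fell in both subsets (-5.14 ± 0.29 in MHC-IIlo and -3.56 ± 0.27 in MHC-IIhi), with 4.85 ± 0.905 CPM in no-lactate and 172 ± 55.5 CPM in fresh MHC-IIlo TAMs, and its changes differed by -1.58 ± 0.37 (adjusted p = 0.00564).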
